A study of Mus musculus with 6 samples.

Results

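*Rpl22* encodes a ribosomal protein of the large subunit, and its mouse gene lies on chromosome 4. The 10 genes described here, *Klhl21*, *Zbtb48*, *Nol9*, *Acot7*, *Gpr153*, *Icmt*, *Rnf207*, *Chd5*, *Nphp4* and *Arhgef16*, lie on the same chromosome within 3 Mb of it. They are 10 of the 34573 genes in the count table. They were chosen by position, and they were selected on earlier results of the same comparison between genotypes. The differences between genotypes are therefore given for these 10 genes as a description. No p-value is given for any of them, and the count of those past the threshold of the fit across all genes stands only beside its background.

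The transcripts of hematopoietic stem cells (HSCs), sorted from bone marrow as lineage-negative, Sca1+, Kit+ cells that were CD48-CD150+, were measured by sequencing polyA RNA. The cells came from young adult *Rpl22*-/- mice, in which the gene is ablated in the germline, and from *Rpl22*+/+ mice. Both genotypes had been backcrossed to C57BL/6 for a number of generations that is not given in the sources used here. There were 3 samples of each genotype, and nothing in the labels says whether they came from separate animals or pools, so the spread between them may be technical in part. How far the *Rpl22*-/- mice still differ from *Rpl22*+/+ mice in DNA around the locus was not measured, so an effect of the allele itself, of linked strain DNA and of the loss of the protein cannot be told apart. In bulk libraries of sorted cells, fewer cells of a type and less RNA per cell cannot be told apart either.

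Genes that sit beside a targeted gene are a known concern in knockout mice. A cassette or a deletion can change the transcription of neighbours, and backcrossing replaces the donor strain's DNA last where it is linked to the selected allele. Neighbouring genes need share no function, and these 10 do not form a pathway. *Nol9*, *Zbtb48*, *Chd5* and *Klhl21* act in the nucleus or in dividing cells, *Icmt* and *Acot7* are enzymes of lipid-linked reactions, *Arhgef16*, *Gpr153* and *Rnf207* belong to families of signalling and ubiquitin proteins, and *Nphp4* belongs to the cilium.

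On GRCm38, the assembly also named mm10, *Rpl22* (ENSMUSG00000028936) runs on the forward strand of chromosome 4 from 152325742 to 152334071. Of the genes in the count table, those that adjoin it on either side are both among the 10. *Rnf207* (ENSMUSG00000058498) lies on the reverse strand from 152307019 to 152318993, 6.7 kb before the start of *Rpl22*. *Chd5* (ENSMUSG00000005045) lies on the forward strand from 152338651 to 152390194, 4.6 kb past its end. *Icmt*, *Gpr153* and *Acot7* follow on the *Rnf207* side at 18.6, 40.4 and 53.9 kb, then *Nol9*, *Zbtb48* and *Klhl21* at 264.2, 298.1 and 308.1 kb. *Nphp4* lies 142.6 kb past *Rpl22*. *Arhgef16* (ENSMUSG00000029032) is the most distant of the 10, on the reverse strand from 154278486 to 154301676, 1.94 Mb past *Rpl22*. The last exons of *Icmt* and *Rnf207* meet end to end on opposite strands and share 103 bp, the exons of *Chd5* share 101 bp with *Gm13645* on the opposite strand, and those of *Klhl21* share 817 bp with *Gm9768* on the opposite strand. The strand setting of the counting is not stated, so reads in these stretches cannot be given to 1 of the partners. No transcript of another gene matched any of the 10 over 50% of its length at 90% identity.

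RefSeq's promoter table for GRCm38.p6 held windows for 8 of the 10 genes, all but *Rnf207* and *Zbtb48*. The 250 bases before the start that RefSeq gives are shown for the targeted gene, for the member that adjoins it past its end and for the member whose level differed most between genotypes. For *Rpl22*, *Chd5*, *Nol9*, *Nphp4*, *Klhl21*, *Gpr153* and *Icmt* that start lies at most 268 bases from the start of the gene as GENCODE gives it, but for *Arhgef16* and *Acot7* it lies 1781 and 7474 bases inside the gene, so their windows belong to a start further down. Capitals mark each CG dinucleotide, and each sequence is written 5′ to 3′ on the gene's own strand.

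*Rpl22*, chr4:152325476-152325725, forward strand: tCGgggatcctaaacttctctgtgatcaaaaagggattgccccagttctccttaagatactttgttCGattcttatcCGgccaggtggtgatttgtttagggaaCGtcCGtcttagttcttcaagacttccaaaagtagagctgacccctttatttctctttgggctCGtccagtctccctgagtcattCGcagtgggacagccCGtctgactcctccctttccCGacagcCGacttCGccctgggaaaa

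*Chd5*, chr4:152338401-152338650, forward strand: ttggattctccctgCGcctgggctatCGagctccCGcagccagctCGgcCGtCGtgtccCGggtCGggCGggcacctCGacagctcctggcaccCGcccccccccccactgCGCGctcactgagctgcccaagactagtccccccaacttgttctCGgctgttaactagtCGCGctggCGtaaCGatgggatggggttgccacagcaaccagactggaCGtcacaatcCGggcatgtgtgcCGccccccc

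*Arhgef16*, chr4:154299896-154300145, reverse strand: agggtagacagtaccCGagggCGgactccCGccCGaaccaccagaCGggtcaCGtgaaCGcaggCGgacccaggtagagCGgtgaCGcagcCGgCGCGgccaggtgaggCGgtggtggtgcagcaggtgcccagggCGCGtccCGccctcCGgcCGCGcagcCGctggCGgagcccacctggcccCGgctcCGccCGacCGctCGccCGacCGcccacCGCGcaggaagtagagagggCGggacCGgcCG

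These windows hold 11 CG dinucleotides in *Rpl22*, 21 in *Chd5* and 34 in *Arhgef16*, while the median over the 27025 windows of RefSeq's table, 1 per gene, is 6. Among the other members *Icmt* has 40, *Gpr153* 26, *Klhl21* 18, *Nol9* 15, *Acot7* 6 and *Nphp4* 4. A GC box (GGGCGG on either strand) occurs in 7 of the 8 members' windows, *Nphp4* being the exception, and in 32.9% of all windows. None of the 8 holds a TATA box (TATAAA) or the letters CCAAT, on either strand, which 13% and 34.5% of all windows hold. The *Arhgef16* window also holds an E box (CACGTG), as do 6.05% of all windows. The number of CG dinucleotides did not follow the level throughout. *Gpr153* and *Chd5*, with almost no reads, had more than *Nol9*, whose level was among the highest of the 10. Other members went the other way: *Icmt*, also among the higher levels, had the most, and *Nphp4*, at a low level, the fewest. *Acot7* and *Arhgef16* are left out here, since their windows belong to a start further down.

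Reads assigned to genes numbered from 9321123 to 13385850 in a library. Counts were scaled to CPM, which sets each library to the same total after TMM scaling, and 14004 genes with enough reads were compared in edgeR (quasi-likelihood test, Benjamini-Hochberg adjustment). *Rpl22* itself was counted 449, 527 and 546 times across the *Rpl22*-/- replicates, as against 6890, 7001 and 5031 times across the *Rpl22*+/+ replicates, so each library matched its label. All 9 HSC markers looked up had reads, with summed levels of 2546 to 2804 CPM in *Rpl22*-/- and 2704 to 2750 CPM in *Rpl22*+/+ libraries. B cell markers summed to at most 3.95 CPM in any library, and *Cd3e* had no reads in any. The 5 megakaryocyte markers summed to 742 to 921 CPM in *Rpl22*-/- and 502 to 667 CPM in *Rpl22*+/+ libraries, and 4 of them were higher in *Rpl22*-/- at an edgeR adjusted p below 0.05. The 6 neutrophil and monocyte markers summed to 19.1 to 37.2 CPM and 3.77 to 23.3 CPM in the same order, and 1 passed. T cell markers ran from 9.74 to 11.9 and from 7.28 to 9.45 CPM, erythroid markers from 23.1 to 25.8 and from 20.9 to 22.2 CPM, and *Cd48* with *Flt3*, which the sort selects against or which mark later progenitors, from 41.9 to 48.9 and from 49.3 to 63.3 CPM, with none called. The T cell sum was nearly all *Lck*, with means of 10.9 CPM in *Rpl22*-/- and 8.55 CPM in *Rpl22*+/+ libraries. Means of the other T cell markers were at most 0.111 CPM. Most of the erythroid sum was *Epor*, with means of 21.8 and 18.5 CPM. *Lck* and *Epor* are named here after their values were seen. The part of these markers in the results below was not tested.

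Levels can be compared between genes only per length of exon. In *Rpl22*+/+ HSCs the order ran from *Acot7*, at 32.9 ± 1.84 CPM per kilobase (SD, n = 3), through *Nol9* at 13.4 ± 0.526, *Icmt* at 11.3 ± 0.279, *Klhl21* at 8.05 ± 0.358 and *Zbtb48* at 6.22 ± 0.470 CPM per kilobase. The median over 13346 tested genes with a known length was 7.98 CPM per kilobase, so these 5 genes were expressed near or above the middle of the range. A wide gap followed. *Nphp4* measured 0.535 ± 0.0991 CPM per kilobase (SD, n = 3), *Arhgef16* 0.246 ± 0.0358, *Rnf207* 0.165 ± 0.0708 and *Chd5* 0.0801 ± 0.0106. *Gpr153* was last, with reads in 1 library of each genotype. Among neighbours in this order, the *Rpl22*+/+ libraries of *Arhgef16* and *Rnf207* overlapped, and those of all other pairs from *Acot7* to *Gpr153* did not. In *Rpl22*-/- HSCs the order was the same except that *Arhgef16*, at 1.43 ± 0.0981 CPM per kilobase (SD, n = 3), stood above *Nphp4*, at 0.489 ± 0.0996.

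**Figure D1:**
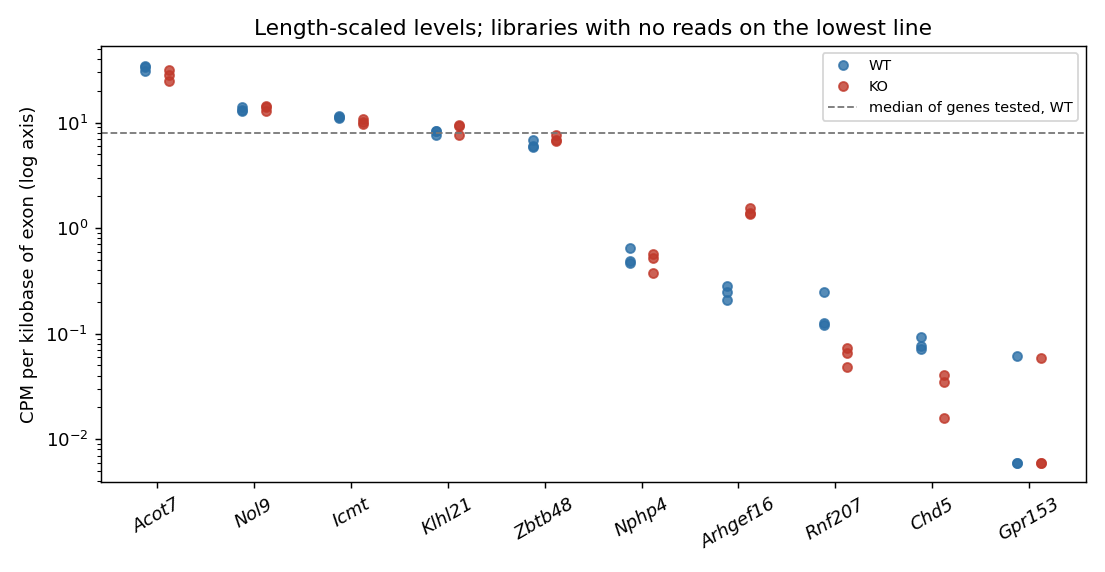
Level of the 10 genes flanking *Rpl22* in each library, in CPM per kilobase of exon on a log axis, with 3 *Rpl22*+/+ (WT) and 3 *Rpl22*-/- (KO) points per gene and the median of all tested genes as a dashed line. Points on the lowest line had no reads. *Acot7*, *Nol9*, *Icmt*, *Klhl21* and *Zbtb48* lie near or above the dashed line at 7.98 CPM per kilobase, and *Arhgef16* is the gene whose KO points stand clear above its WT points.

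*Arhgef16* had the largest difference between genotypes of the 10 genes. It encodes a guanine nucleotide exchange factor, a protein that switches on small GTPases. Its reads numbered 98, 89 and 111 in replicates 1 to 3 of the *Rpl22*-/- group, and 20, 17 and 11 in replicates 1 to 3 of the *Rpl22*+/+ group. Every *Rpl22*-/- library stood above every *Rpl22*+/+ library, with a wide space between them. Mean levels were 7.83 ± 0.537 CPM in *Rpl22*-/- and 1.35 ± 0.196 CPM in *Rpl22*+/+ HSCs (SD, n = 3), and the fitted log2 fold change was 2.51 with a standard error of 0.258, or 5.71-fold. With single libraries left out, with other scaling, with DESeq2 or with other filters, 13 alternatives in all, the log2 fold change stayed between 2.42 and 2.62. These fits reuse the comparison on which the gene was selected, so their closeness is a description only. The level in *Rpl22*+/+ HSCs was low, at percentile 2.26 of the tested genes per kilobase.

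The genes that adjoin *Rpl22* had few reads. *Chd5* encodes a chromatin remodeller of the CHD family that is known mainly from neurons and testis and as a tumour suppressor. It was counted 5, 4 and 2 times across the *Rpl22*-/- replicates, as against 9, 11 and 7 times across the *Rpl22*+/+ replicates. *Rnf207*, a RING finger protein known from the heart, was counted 6, 5 and 4 times across the *Rpl22*-/- replicates, as against 10, 10 and 15 times across the *Rpl22*+/+ replicates. For both genes each *Rpl22*-/- library lay below each *Rpl22*+/+ library in reads and in CPM. Over all genes tested, which include neither of them, the genotypes did not overlap for 26.9%. The ratio of scaled reads, *Rpl22*-/- over *Rpl22*+/+, was 0.376 for *Chd5* (95% exact binomial interval 0.168 to 0.783) and 0.396 for *Rnf207* (0.201 to 0.743). These intervals cover counting error in the summed reads only, with no spread between samples, and are no test of the genotypes.

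Neither gene had enough reads for the filter. Fitted without the filter, the log2 fold changes were −1.37 for *Chd5* (standard error 0.784) and −1.35 for *Rnf207* (standard error 0.689). *Rnf207* also came through the filter with 4 of the 6 libraries left out in turn, at log2 fold changes between −1.53 and −1.18. It reached 10 reads only in *Rpl22*+/+ libraries, so it passed through the group in which it was higher. These values therefore add no support for a difference. *Rpl22* itself, between them, was 0.0745 times its *Rpl22*+/+ level, and reads were still counted on it in each *Rpl22*-/- library. *Gpr153* (ENSMUSG00000042804, forward strand, 152274232 to 152285337), an orphan G protein-coupled receptor 40.4 kb from *Rpl22*, was counted 0, 0 and 3 times across the *Rpl22*-/- replicates, as against 0, 3 and 0 times across the *Rpl22*+/+ replicates, so no difference was detectable at this depth in either direction.

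**Figure D2:**
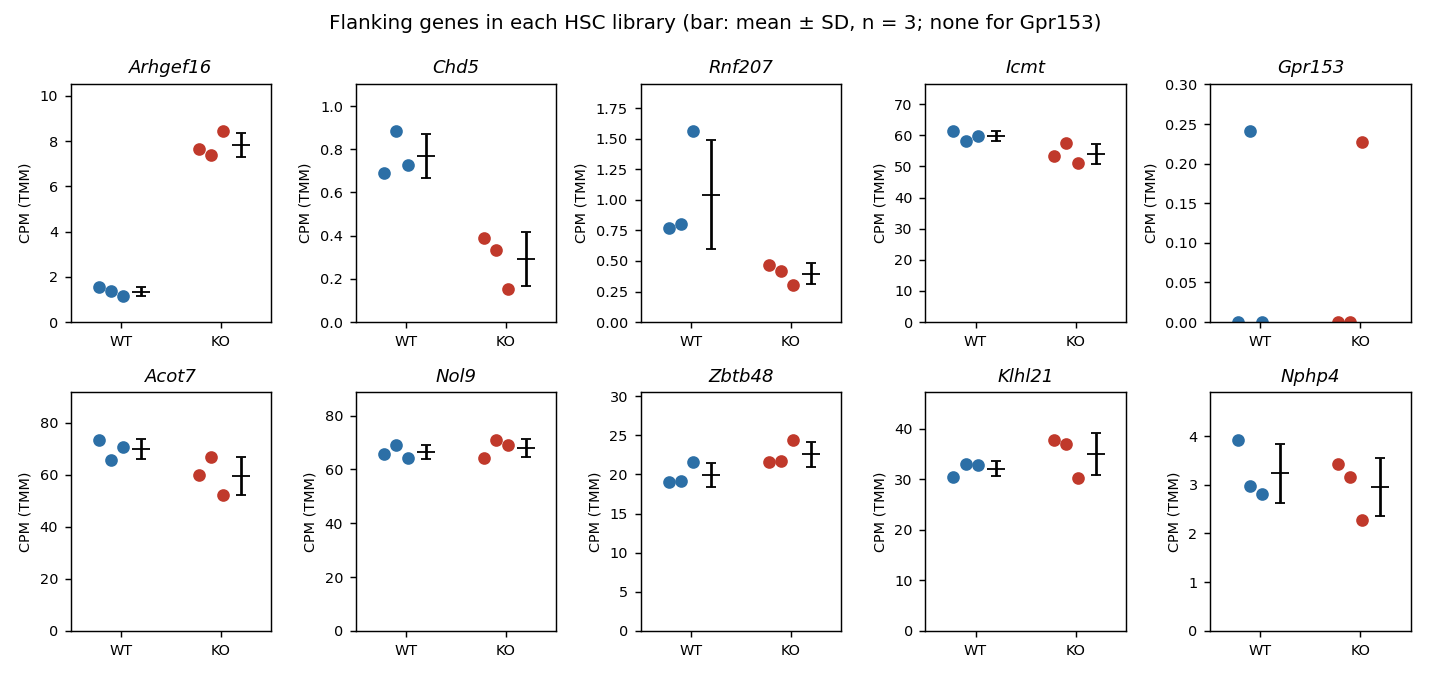
CPM of each of the 10 flanking genes in the 3 *Rpl22*+/+ (WT, blue) and 3 *Rpl22*-/- (KO, red) libraries, on linear axes from 0 that differ between panels, with the mean ± SD of 3 libraries beside the points for every gene but *Gpr153*. The genotypes do not overlap for *Arhgef16*, *Chd5*, *Rnf207* and *Icmt*, and *Chd5*, *Rnf207* and *Gpr153* lie at or below 1.56 CPM in every library. Over all genes tested, which do not include *Chd5* and *Rnf207*, the genotypes do not overlap for 26.9%.

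Both enzyme genes, *Icmt* and *Acot7*, lie on the *Rnf207* side of *Rpl22*, with *Gpr153* between them, and had at least 574 reads in each library. *Icmt* (ENSMUSG00000039662, forward strand, 152297227 to 152307121) encodes the methyltransferase that caps the processed carboxyl end of Ras and lamin proteins. It was counted 685, 691 and 673 times across the *Rpl22*-/- replicates, as against 798, 727 and 574 times across the *Rpl22*+/+ replicates. Scaled for library size, it measured 54.0 ± 3.24 CPM in *Rpl22*-/- HSCs, as against 59.8 ± 1.48 CPM in *Rpl22*+/+ HSCs (SD, n = 3). The libraries did not overlap, but the log2 fold change was small, −0.15 with a standard error of 0.0895. *Acot7* (ENSMUSG00000028937, forward strand, 152178134 to 152271855) encodes a thioesterase that splits long-chain acyl-CoA into fatty acid and coenzyme A.

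*Acot7* was counted 767, 801 and 688 times across the *Rpl22*-/- replicates, as against 954, 817 and 679 times across the *Rpl22*+/+ replicates, or 59.6 ± 7.20 and 69.8 ± 3.92 CPM (SD, n = 3). *Rpl22*-/- replicate 2, at 66.7 CPM, lay above *Rpl22*+/+ replicate 2, at 65.6 CPM, so the genotypes overlapped. Its log2 fold change was −0.23 with a standard error of 0.0998, the lowest of the 7 members in the fit, and it was −0.32 without *Rpl22*-/- replicate 2 and −0.14 without *Rpl22*-/- replicate 3.

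*Nol9*, *Zbtb48* and *Klhl21* lie close to each other, 264.2 to 308.1 kb before *Rpl22*. *Nol9* (ENSMUSG00000028948, forward strand, 152039321 to 152061494) encodes the polynucleotide kinase that acts on the cut internal spacer during maturation of the large ribosomal subunit's RNA. It was counted 823, 852 and 907 times across the *Rpl22*-/- replicates, as against 855, 862 and 616 times across the *Rpl22*+/+ replicates, and its levels of 68.0 ± 3.48 and 66.3 ± 2.61 CPM (SD, n = 3) overlapped (log2 fold change 0.03, standard error 0.0860). *Zbtb48* (ENSMUSG00000028952, reverse strand, 152019774 to 152027671) encodes a zinc finger protein that binds telomeres. It was counted 277, 261 and 321 times across the *Rpl22*-/- replicates, as against 247, 238 and 208 times across the *Rpl22*+/+ replicates, with a log2 fold change of 0.18 and a standard error of 0.127.

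*Klhl21* (ENSMUSG00000073700, forward strand, 152008803 to 152017680) encodes an adaptor of the Cul3 ubiquitin ligase that works in mitosis. It was counted 484, 443 and 397 times across the *Rpl22*-/- replicates, as against 396, 410 and 316 times across the *Rpl22*+/+ replicates, with a log2 fold change of 0.12 and a standard error of 0.117. *Rpl22*-/- replicate 3, at 30.2 CPM, was its lowest library and the other *Rpl22*-/- libraries were its highest. *Nphp4* (ENSMUSG00000039577, forward strand, 152476706 to 152563183), a protein of the transition zone of the cilium, was counted 44, 38 and 30 times across the *Rpl22*-/- replicates, as against 51, 37 and 27 times across the *Rpl22*+/+ replicates. Its levels of 2.96 ± 0.602 and 3.23 ± 0.599 CPM (SD, n = 3) overlapped (log2 fold change −0.14, standard error 0.291), and the sign turned without *Rpl22*-/- replicate 3 (0.022) or *Rpl22*+/+ replicate 1 (0.030).

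Of the 10 genes, 7 had enough reads for the fit and 3 did not. Among the 7, the log2 fold changes of 4 were positive and 3 negative, with a median of 0.03, and 6 lay within 0.25 of 0 on the log2 scale. Over all 14004 genes tested the median was −0.0068. In edgeR, with adjustment over all genes, 1 of the 7, *Arhgef16*, had an adjusted p below 0.05, and it was higher in *Rpl22*-/- HSCs. The same threshold was passed by 5.57% of all genes tested, 3.28% higher and 2.29% lower in *Rpl22*-/- HSCs. There was no overlap between the genotypes for 2 of the 7, *Arhgef16* and *Icmt*, and for 26.9% of all genes tested. Since earlier results of this comparison were known when the 10 were selected, nothing is read from these counts.

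The partners of 3 members elsewhere in the genome were looked up from lists. The rixosome, the complex in which *Nol9* works, is represented by *Las1l*, *Pelp1*, *Tex10*, *Wdr18*, *Senp3* and *Mdn1*. All 6 were tested, with log2 fold changes from −0.23 to 0.26, 2 positive and 4 negative, and edgeR called 0 of them, DESeq2 called 0, and 2 had an unadjusted p below 0.05. Over all genes, DESeq2 called 7.85% of the 13461 to which it gave an adjusted p, and 22.3% had an unadjusted p below 0.05 in edgeR. The other enzymes that prenylate proteins or process them before *Icmt* acts, namely *Fnta*, *Fntb*, *Pggt1b*, *Rce1* and *Zmpste24*, ran from −0.25 to 0.11. Of these 5, 0 were called by edgeR or DESeq2 and 2 had an unadjusted p below 0.05. Of 14 acyl-CoA thioesterases other than *Acot7*, 9 were tested, with log2 fold changes from −0.31 to 0.099, and 0 were called by edgeR or DESeq2 or had an unadjusted p below 0.05. For *Nol9*, *Icmt* and *Acot7* themselves the log2 fold changes were 0.03, −0.15 and −0.23.

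To see the 10 among all their neighbours, every gene of the annotation within 3 Mb of *Rpl22* was taken by position alone. The annotation lists 134 such genes besides *Rpl22*, of which 115 are in the count table and 57 had enough reads. The log2 fold changes of these 57 had a median of −0.0746 (23 positive and 34 negative), against −0.0057 over the 823 tested genes on the rest of chromosome 4. In edgeR, adjusted over all genes, 8 of the 57, or 14%, were called, 2 higher and 6 lower in *Rpl22*-/- HSCs. Of the rest of chromosome 4, 41 of 823 genes, or 4.98%, were called, and of all genes 5.57%. These shares were not tested against each other. Without the 10 selected genes 7 of 50 were called, 1 higher and 6 lower. Leaving out *Rpl22*-/- replicate 3 or *Rpl22*+/+ replicate 1, 2 or 3 lowered the count near *Rpl22* to 4, 4, 4 and 2, while the share of all genes called fell to 0.892%, 1.44%, 1.82% and 1.69%.

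In the main edgeR fit (TMM scaling, the read filter, genotype alone, all libraries), the called genes were not the nearest ones. Within 0.5 Mb of *Rpl22*, where 9 of the 10 members lie, edgeR called 0 of 15 tested genes, and 4 had an unadjusted p below 0.05, which 22.3% of all genes had. No further tested gene lay between 0.5 and 1 Mb. The genotypes did not overlap for 6 of these 15 genes, or 40%, and for 24 of the 57 within 3 Mb, or 42.1%. Without the members it was 22 of the 50 within 3 Mb, or 44%, and over all genes 26.9%. These shares were not tested against each other. The count of 0 calls depended on the setting, since 0 to 2 genes within 0.5 Mb were called over the 13 alternatives. *Camta1*, which encodes a transcription activator and lies 0.46 Mb away, had a log2 fold change of 0.43 (edgeR adjusted p = 0.0519) and was called in 6 of the 13, DESeq2 among them (adjusted p = 0.0268). *Kcnab2*, a potassium channel subunit next to *Chd5*, had a log2 fold change of −0.33 (edgeR adjusted p = 0.0653) and was called in 4 of the 13. *Tnfrsf25*, a receptor of the tumour necrosis factor family, was called without *Rpl22*-/- replicate 1, and these 3 genes are named here after their values were seen. Between 1 and 2 Mb 4 of 14 genes were called, *Arhgef16* among them, and between 2 and 3 Mb 4 of 28. Before the start of *Rpl22* 7 of 34 tested genes were called, and past its end 1 of 23, which was *Arhgef16*. Over all genes tested the share called was 5.57%. *Arhgef16* was selected on earlier results of this comparison, so nothing is read from the counts that hold it.

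**Figure D3:**
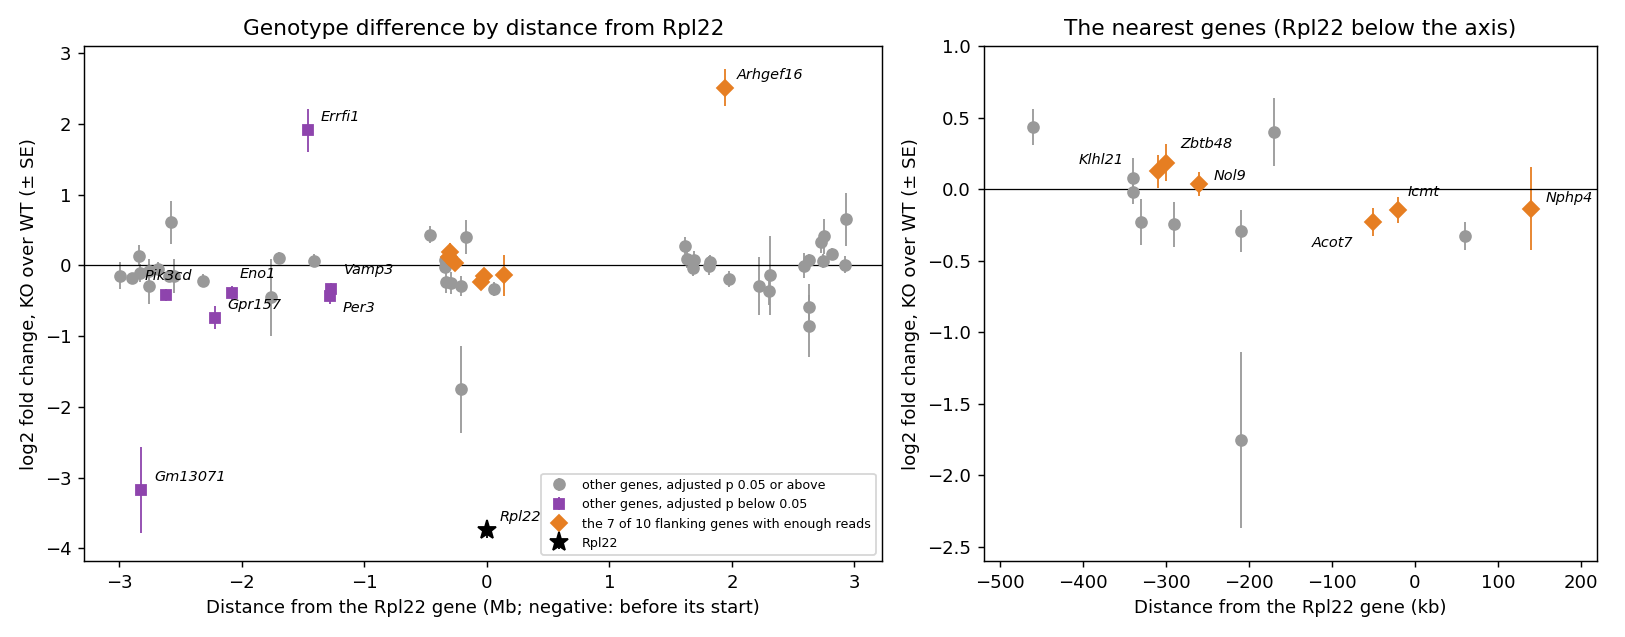
Log2 fold change of *Rpl22*-/- (KO) over *Rpl22*+/+ (WT) HSCs, with its standard error, for each tested gene within 3 Mb of *Rpl22* by distance from *Rpl22* (left, in Mb) and for the nearest genes alone (right, in kb). *Arhgef16* and *Errfi1*, the called genes that were higher in KO, lie 1.94 and 1.46 Mb away on opposite sides, and the 6 fitted members within 0.5 Mb sit between −0.23 and 0.18.

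Apart from *Arhgef16*, the called neighbour that was higher was *Errfi1*, which encodes a feedback inhibitor of the EGF receptor and lies 1.46 Mb before *Rpl22*. It was counted 61, 67 and 71 times across the *Rpl22*-/- replicates, as against 25, 12 and 12 times across the *Rpl22*+/+ replicates (fitted log2 fold change 1.91, standard error 0.309, edgeR adjusted p = 0.00443). All its *Rpl22*-/- libraries lay above all its *Rpl22*+/+ libraries, and it was called in all 13 alternatives run across all genes.

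The 6 called neighbours that were lower all lie before *Rpl22*, between 1.27 and 2.82 Mb away. *Pik3cd*, the catalytic subunit of the phosphoinositide 3-kinase of leukocytes, measured 137 ± 3.89 CPM (SD, n = 3) in *Rpl22*-/- and 183 ± 15.1 CPM (SD, n = 3) in *Rpl22*+/+ HSCs (log2 fold change −0.41, edgeR adjusted p = 0.0143). *Gpr157*, an orphan G protein-coupled receptor, measured 11.5 ± 1.96 and 19.2 ± 2.83 CPM (log2 fold change −0.74, edgeR adjusted p = 0.0190). *Per3*, a protein of the circadian clock, and its neighbour *Vamp3*, a protein of vesicle fusion, had log2 fold changes of −0.43 and −0.33 (edgeR adjusted p = 0.0298 and 0.0333). For each of these 4 genes all *Rpl22*-/- libraries lay below all *Rpl22*+/+ libraries. The calls depended on which libraries were in the fit: *Pik3cd* was no longer called once *Rpl22*-/- replicate 3, or *Rpl22*+/+ replicate 1 or 3, was left out (adjusted p up to 0.0966), *Gpr157* without replicate 2 of either genotype or *Rpl22*+/+ replicate 3 (up to 0.0954), and *Per3* and *Vamp3* without *Rpl22*-/- replicate 2 or 3 or any *Rpl22*+/+ library (up to 0.130 and 0.155).

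The remaining called neighbours are *Eno1* and *Gm13071*. The glycolytic enzyme gene *Eno1* was lower by a log2 fold change of −0.39 (edgeR adjusted p = 0.0332). It has a near-identical copy on another chromosome, listed as *Gm5506* in the count table, with 99.5% identity over 1736 aligned bases, and that copy was counted 357, 425 and 329 times across the *Rpl22*-/- replicates, as against 0, 6 and 0 times across the *Rpl22*+/+ replicates. Reads of *Eno1* and its copy may have been divided between them, so the value for *Eno1* is uncertain, and its call was lost without *Rpl22*-/- replicate 1 or 3 or any *Rpl22*+/+ library (edgeR adjusted p up to 0.145). *Gm13071*, a processed pseudogene, was counted 1, 1 and 4 times across the *Rpl22*-/- replicates, as against 15, 19 and 18 times across the *Rpl22*+/+ replicates (fitted log2 fold change −3.17, standard error 0.608, edgeR adjusted p = 0.0103). DESeq2 gave it no adjusted p, the filter of 10 reads in every library left it out, and its call was lost without *Rpl22*+/+ replicate 3 (edgeR adjusted p = 0.0514). Without *Eno1* and *Gm13071*, 6 of 55 genes near *Rpl22* were called.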

How the data were processed

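RNA of sorted HSCs was sequenced from polyA libraries (TruSeq) in 3 *Rpl22*-/- and 3 *Rpl22*+/+ samples. The authors checked reads with FastQC, aligned them to mm10 with TopHat2 (version 2.1.1 in the submitters' processing notes), and deposited raw counts per gene from HTSeq. The strand setting and annotation are not given in the sources used here. HTSeq's 5 totals of unassigned reads, 58.63% to 60.87% of each library, were kept out. Precision rests on 3 libraries per genotype.

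Positions and exon lengths came from GENCODE M21 (GRCm38). Of 34573 symbols, 29093 were found as given and 1836 under an older name. In edgeR 4.0.16 (R 4.3.3), filterByExpr (minimum count 10) kept 14004 genes. Library scaling was TMM, genotypes were tested by quasi-likelihood, and p-values were adjusted over all genes after Benjamini-Hochberg, with 0.05 as threshold. A standard error is the size of the log2 fold change divided by √F. DESeq2 1.42.0 was an alternative, and BLAST 2.17.0 searched for copies. The scripts were tested on simulated data. Other steps used Python 3.11.15.

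The members and lists were chosen with earlier results of these data known. Named are *Rpl22*, the 10 members, the genes adjoining *Rpl22* among those in the count table, and every called gene within 3 Mb. Genes named outside this rule are marked.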

Additional observations from a re-analysis of the deposited data

How the results depend on the processing

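The scaling (relative log expression, upper-quartile, library size alone), DESeq2, the filter (none, or at least 10 reads in every library), a term for replicate number and leaving out each library were tried as alternatives. The number of genes called within 3 Mb of *Rpl22* was 8 of 57, and between 7 and 10 in the alternatives that kept all libraries. The number tested differed, with 10 of 84 called without a filter and 7 of 52 with at least 10 reads in every library. DESeq2 called 8 of the 54 with an adjusted p. Over all genes these alternatives called 5.62% to 7.85%, as against 5.57% in the main fit. With 1 library left out the number near *Rpl22* was 2 to 9, with 127 to 1720 calls over all genes. The median log2 fold change of the tested genes within 3 Mb was −0.0746, and −0.11 to 0.011 with 1 library left out. It was −0.12 with library size alone, −0.029 with at least 10 reads in every library and −0.013 for protein-coding genes alone. Its sign turned without *Rpl22*-/- replicate 3. Within 1 Mb and within 0.5 Mb, which hold the same 15 tested genes, 0 were called and the median was −0.14, and on the whole of chromosome 4, *Rpl22* left out, 49 of 880 were called and the median was −0.0065, since these lists hold other genes. The 0 within 0.5 Mb became 1 or 2 in 7 of the 13 alternatives, with *Camta1* called in 6 and *Kcnab2* in 4. Protein-coding genes alone gave 7 of 48, and leaving out *Eno1* and *Gm13071* gave 6 of 55, both chosen after seeing the data. With the replicate block 10 genes were called and the median was −0.0789. Nothing in the labels pairs same-numbered libraries. Their deviations from the genotype means had correlations of −0.112, 0.069 and 0.049, and not every library correlated best with its own number. With 3 libraries per genotype, these values cannot tell whether same-numbered libraries were prepared together. Among the members, *Arhgef16* kept its direction and size (2.42 to 2.62) in all 13 alternatives, and *Icmt*, *Acot7*, *Zbtb48* and *Klhl21* kept their signs. The members were selected on earlier results of this comparison, so these values are a description only. *Nol9* was positive in 12 of 13, with −0.0095 under library size alone, and *Nphp4* negative in 11 of 13. Depth limits *Chd5*, *Rnf207* and *Gpr153*, whose summed reads per genotype were 35 or fewer.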
